A study of Caenorhabditis elegans with 15 samples.

Results

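The *fbxa-* genes are the largest named group of F-box genes in *Caenorhabditis elegans*. The genes described here are those whose symbol starts with *fbxa-* in the gene names deposited with the data, without *fbxa-215*, the gene mutated in the study, and without *fbxa-192*, *fbxa-210* and *fbxa-158*. They are defined by symbol, and the set was chosen with earlier results of these data known. They number 172 of the 21882 genes counted (176 *fbxa-* symbols before the 4 exclusions). F-box proteins are the adaptors of SCF ubiquitin ligases: the F-box binds a Skp1-type protein, which in *C. elegans* belongs to the SKR family and sits on a cullin, and the rest of the F-box protein holds the substrate that is to be ubiquitinated and degraded. In the *fbxa* class the F-box is typically followed by an FTH domain, named after FOG-2, an F-box protein of the hermaphrodite germline, and the A2 branch of the class, to which *fbxa-215* belongs, carries in addition a helix-turn-helix domain related to Tc1/mariner transposases at its N-terminus. For most *fbxa-* genes no substrate and no function is established, and large, fast-changing F-box families of this kind have been discussed as a source of adaptors in defence.

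RNA was taken from whole young adults of wild-type N2 and of the mutant strain SX3678, which carries *fbxa-215(syb4404)*, an allele that lacks the whole coding sequence of the gene, so that the mutants represent 1 allele. Both strains were first kept at 20 °C, synchronised by bleaching and hatching without food, and then raised on HB101 bacteria, for about 48 h at 20 °C or about 36 h at 25 °C. There were 4 N2 and 4 mutant libraries at 20 °C, and 4 N2 and 3 mutant libraries at 25 °C. Temperature and hours after plating changed together and cannot be told apart. The paper calls the replicates biological, but neither it nor the labels say whether they were separate cultures. The p-values therefore measure the spread between these libraries, and how much of it is technical is not known.

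Depth ranged from 10842744 to 28391866 counts per library, and mutant replicate 4 at 20 °C was the deepest. Levels are given as a gene's counts divided by the TMM-scaled library total and expressed as CPM. A count of 3 was worth between 0.103 and 0.277 CPM, a floor that covers counting error only. The targeted gene *fbxa-215* had 145 to 167 CPM in N2 at 20 °C and 124 to 144 CPM at 25 °C, against 0 to 0.151 CPM in the 7 mutant libraries. Of the tissue marker lists, the germline, oocyte, sperm, intestine, hypodermis, body muscle, pharynx and neuron markers were all detected, none of them at 0 in every library. Because these are whole animals, fewer cells of a type and less RNA per cell cannot be told apart.

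Most of the *fbxa-* genes were transcribed at low levels in young adults. To compare genes with each other, CPM was divided by the length of the joined exons in kb, which had a median of 1118 bases among the 172 genes (451 to 5668). In N2 at 20 °C the median level was 0.444 CPM per kb, against 1.97 for all genes with an annotated length and 2.95 for protein-coding genes. Of the 172, 44 lay above the median of all genes, and 27 above that of protein-coding genes. In all 15 libraries together, 12 of the genes had no count at all, 37 never exceeded 3 counts in a library, 100 were above 0 in every library, and 64 (37.2%) had 10 or more counts in every library, which 53.6% of all genes did.

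**Figure D1:**
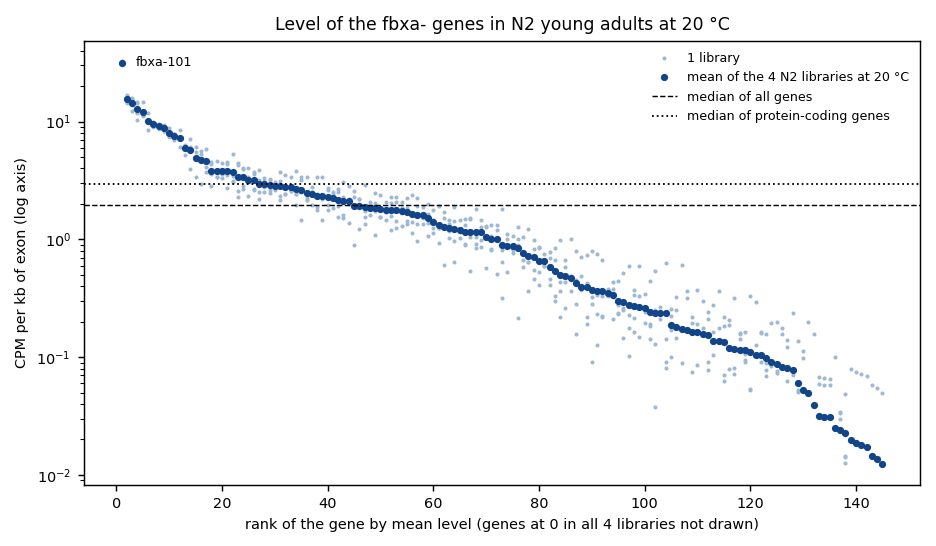
Level of each *fbxa-* gene in the 4 N2 libraries at 20 °C, in CPM per kb of exon on a log axis, ordered by the mean; small points are single libraries, lines are medians of all and of protein-coding genes, and values of 0 are not drawn. *fbxa-101* stands alone at 31.5 CPM per kb, and 44 of the 172 genes lie above the median of all genes (1.97).

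A few members carried much of the total. The 10 highest held 42.4% of the summed CPM per kb in N2 at 20 °C, and *fbxa-101* alone held 10.1%. *fbxa-101* (chromosome I, 12958640 to 12959932 on WBcel235, minus strand, 4 exons) was at 31.5 ± 0.873 CPM per kb (SD, n = 4), at the 82.0th percentile of all genes, with no overlap with the next gene in the order. It was followed by *fbxa-206* at 15.6 ± 1.29, *fbxa-114* at 14.4 ± 1.57, *fbxa-74* at 12.8 ± 2.12 and *fbxa-60* at 12.2 ± 1.77 CPM per kb. Then came *fbxa-156* at 10.1 ± 1.33, *fbxa-72* at 9.52 ± 0.356, *fbxa-197* at 9.09 ± 0.442, *fbxa-69* at 8.80 ± 0.554 and *fbxa-211* at 7.93 ± 0.593 CPM per kb. From *fbxa-206* downwards each of these genes overlapped its neighbour in the order, so their ranks are not separated by the spread between libraries. The products of *fbxa-101* and *fbxa-114* are F-box proteins without the helix-turn-helix domain that the study counts as germline-expressed, and the study lists *fbxa-197* as having lost the F-box. The other end of the range held *fbxa-75*, which encodes an adaptor of the CUL-6 ligase of the intracellular pathogen response: it had 1 count in mutant replicate 2 at 25 °C and 0 in the other 14 libraries.

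These genes are concentrated on a few chromosomes and sit next to each other. Chromosome V carried 69, chromosome III 64, X 16, II 13, I 6 and IV 4, and 128 of the 172 lay within 50 kb of another one, in 23 groups. The largest group held 30 genes between 1236015 and 1384252 on chromosome III, of which 18 had enough counts to be tested. On chromosome X, where 3 of 16 had no count in any library, the median level was 0.0657 CPM per kb in N2 at 20 °C, compared with 0.710 on III and 0.373 on V. Near-identical neighbours limit some of these values. In 26 genes the deposited estimates were not whole numbers in at least 1 library, and *fbxa-156* and *fbxa-157*, which are neighbours on chromosome V (17895314 to 17901906), shared fractional reads in all 15 libraries, so their counts are not independent. Other pairs shared them in fewer libraries, such as *fbxa-60* with *fbxa-55* in 3 and with *fbxa-59* in 1. The libraries were not strand-specific, and 11 members overlap an exon of another counted gene on their own strand and 17 on the opposite strand, none of which has its values given below.

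The loss of *fbxa-215* was first compared within 20 °C, to ask which other *fbxa-* genes differ in its absence. Of the 83 with enough counts, 1 passed edgeR's quasi-likelihood test (FDR by Benjamini and Hochberg below 0.05, with a log2 fold change beyond 1 in either direction, here referred to as called), where 1.49% of all 13127 genes tested were called. The median log2 fold change of mutants over N2 was 0.021 among the members and 0.015 among all genes. With the FDR alone, 3 of 83 passed, *fbxa-125*, *fbxa-105* and *fbxa-170*, against 13.5% of all genes. In this comparison the *fbxa-* genes were thus called about as often as other genes with the fold change threshold, and less often without it, a difference that was not tested. The groups did not overlap, with mutants higher, in 5 of the 83 (9.89% of all genes) and, with mutants lower, in 2 (11.4%).

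The gene called was *fbxa-125* (chromosome I, 10646478 to 10647841, plus strand, 5 exons), which was higher in mutants. It passed the filter through the mutant libraries, in which it was high, so the call is not read as a result about the members. It had 0.361, 1.24, 0.647 and 0.643 CPM in N2 replicates 1 to 4 and 1.36, 1.59, 1.61 and 1.71 CPM in mutant replicates 1 to 4. Every mutant library was above every N2 library, and N2 replicate 2 came closest. The log2 fold change was 1.15 ± 0.34 (SE) with an FDR of 0.043 by edgeR. The call was lost with the replicate block and when any library except N2 replicate 2 was left out (FDR of up to 0.098). At 25 °C the same gene had 1.82, 2.09, 1.305 and 0.777 CPM in N2 and 1.92, 2.08 and 2.01 CPM in mutants, which overlap (log2 fold change 0.42 ± 0.33, edgeR FDR = 0.42).

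Beside it, *fbxa-105* and *fbxa-128*, both picked after their values were seen, had lower values in mutants at 20 °C. *fbxa-105* (chromosome V, 7390529 to 7392029) had 2.81, 3.29, 2.96 and 3.13 CPM in N2 and 1.83, 1.36, 1.61 and 1.61 CPM in mutants at 20 °C. The groups were well apart, and the log2 fold change of -0.91 ± 0.19 passed the FDR (0.015 by edgeR) but not the fold change threshold. At 25 °C it had 2.01, 2.27, 4.35 and 5.82 CPM in N2 and 0.524, 1.70 and 1.59 CPM in mutants, again with no overlap, and the log2 fold change was -1.47 ± 0.47 with an FDR of 0.071 by edgeR. It was called lower there by DESeq2 (-1.50, FDR = 0.013) and by edgeR with all 15 libraries in 1 fit (-1.48, FDR = 0.022). With RLE normalization, without a filter and with the replicate block it was not called. For *fbxa-128* the values at 20 °C were 1.73, 1.32, 2.22 and 2.49 CPM in N2 and 1.28, 1.06, 0.922 and 0.514 CPM in mutants, without overlap but with N2 replicate 2 close to mutant replicate 1. Its log2 fold change of -1.09 ± 0.33 stood just outside the FDR threshold (0.051 by edgeR), and at 25 °C it was -0.45 ± 0.38 (FDR = 0.46). At 20 °C *fbxa-128* was called by DESeq2 (FDR = 0.039). By edgeR it was called with all 15 libraries in 1 fit (FDR = 0.021), RLE normalization (0.047) and at least 10 counts in every library (0.039). Without a filter and with the replicate block it was not called.

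At 25 °C, 3 of the 90 *fbxa-* genes tested were called, all of them higher in mutants, against 1.92% of all 13510 genes, 1.31% higher and 0.614% lower. Of these, *fbxa-163* and *fbxa-61* passed the filter through the mutant libraries, in which they were high. Their calls and direction are therefore not read as results about the members. The direction depended on the fit: with all 15 libraries in 1 fit *fbxa-155* was called higher and *fbxa-105* and *fbxa-135* lower. The median log2 fold change was -0.0519 for the members and 0.00384 for all genes. With the FDR alone 5 of 90 passed, against 12.1% of all genes. Mutants were above N2 without overlap in 6 of the 90 (13.5% of all genes) and below N2 in 11 (11.2%). The clearest of the 3 was *fbxa-155* (chromosome III, 10007966 to 10010217, minus strand, 5 exons). It had 2.07, 1.998, 2.09 and 1.32 CPM in N2 and 4.89, 4.71 and 3.94 CPM in mutants at 25 °C. All 3 mutant libraries were far above the 4 N2 libraries, with a log2 fold change of 1.27 ± 0.23 (edgeR FDR = 0.0046) that stayed called under each of the 13 alternatives and left-out libraries. At 20 °C the gene had 2.09, 1.73, 1.94 and 2.41 CPM in N2 and 2.39, 2.42, 2.305 and 3.01 CPM in mutants, where the groups overlap, and the log2 fold change was 0.34 ± 0.20 (FDR = 0.27).

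The other 2, *fbxa-163* and *fbxa-61*, had few counts. *fbxa-163* (chromosome II, 1609252 to 1610730, minus strand, 4 exons) had 10, 2, 8 and 6 counts in N2 and 22, 21 and 11 counts in mutants at 25 °C. All mutant libraries were above the N2 libraries, and the log2 fold change was 1.56 ± 0.43 (FDR = 0.033 by edgeR). At 20 °C it had 1, 1, 0 and 0 counts in N2 and 5, 2, 5 and 29 counts in mutants, too few to pass the filter there, with mutant replicate 4, the deepest library, holding most of them. With all 15 libraries in 1 fit it was called at 20 °C (edgeR FDR = 0.0092), and also without a filter (edgeR FDR = 0.022). Both of these calls rest on 2 counts in N2. Over the summed counts, 41 against 2, the ratio of mutants to N2 was 14.9 (95% counting interval 3.86 to 127). Without mutant replicate 4, a setting chosen after seeing the data, it was 7.62 (1.70 to 70.1) over 12 against 2 counts.

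*fbxa-61* (chromosome III, 1239048 to 1242799, plus strand, 4 exons) had 0.912, 0.545, 0.696 and 0.544 CPM in N2 and 1.92, 2.47 and 1.09 CPM in mutants at 25 °C. The groups did not overlap, although mutant replicate 3 was close to N2 replicate 1, and the log2 fold change was 1.40 ± 0.38 (FDR = 0.029 by edgeR). At 20 °C it had 0.938, 1.32, 0.832 and 0.723 CPM in N2 and 1.67, 3.55, 0.845 and 3.01 CPM in mutants, so 3 mutant libraries were higher and replicate 3 was among the N2 values. The log2 fold change there, 1.29 ± 0.41, was of similar size and did not pass (FDR = 0.058 by edgeR). It was called at 20 °C by DESeq2 (FDR = 0.038) and by edgeR with all 15 libraries in 1 fit (FDR = 0.027), but not with RLE normalization, without a filter or with the replicate block. Both genes lost their call at 25 °C when all 15 libraries were fitted together (FDR = 0.061 for *fbxa-163* and 0.056 for *fbxa-61*) and when mutant replicate 2 was left out (0.13 and 0.16). With the replicate block both calls were lost too. The call of *fbxa-163* was also lost without mutant replicate 1 or N2 replicate 1, 2 or 4, and that of *fbxa-61* without N2 replicate 2, 3 or 4.

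**Figure D2:**
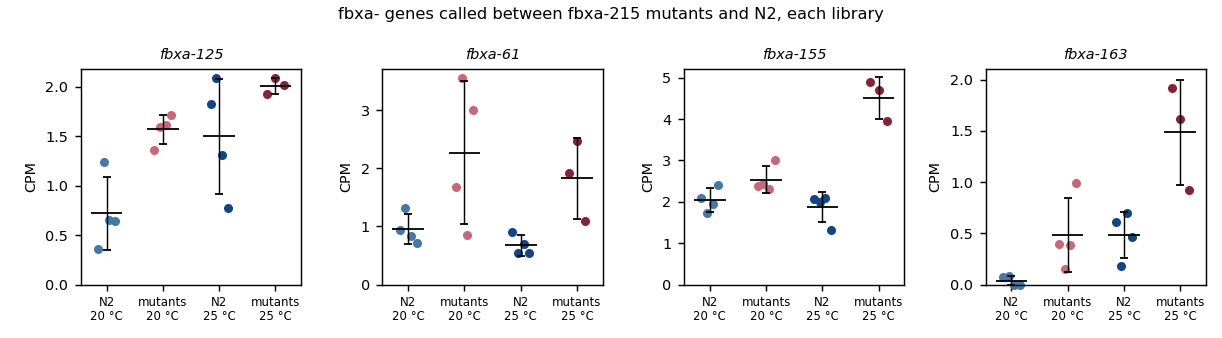
CPM of the 4 *fbxa-* genes called between *fbxa-215* mutants and N2, 1 point per library, with the mean (line) and SD (error bar) of each group of 4 libraries (3 for mutants at 25 °C). *fbxa-155* separates mutants from N2 at 25 °C (3.94 to 4.89 against 1.32 to 2.09 CPM), and *fbxa-125* at 20 °C (1.36 to 1.71 against 0.361 to 1.24 CPM).

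No member was called at both temperatures (0 genes by edgeR's quasi-likelihood test, while by DESeq2 *fbxa-61* alone and by edgeR without a filter *fbxa-163* alone was called at both). Of the 80 tested at both, 5 (6.25%) had an unadjusted p under 0.05 at each, against 9.72% of all genes. Mutant and N2 libraries of the 2 temperatures are separate. Across the 80 genes the log2 fold changes at 20 and 25 °C were correlated with a Pearson's r of 0.48 and a Spearman's rho of 0.39, where all 12972 genes tested at both gave 0.37 and 0.22. The sign was the same in 49 of the 80, and in 57.4% of all genes. This is a description across genes, which are not independent replicates. *fbxa-135*, which was picked after its values were seen and had too few counts to pass the filter within a temperature, was low in all mutant libraries, with 1 to 3 counts in each of the 7, against 1, 3, 11 and 6 counts in N2 at 20 °C and 21, 5, 9 and 33 counts at 25 °C. The ratio of mutants to N2 over summed counts was 0.173 (95% counting interval 0.0508 to 0.47) at 20 °C and 0.126 (0.0446 to 0.288) at 25 °C. The groups overlapped at 20 °C and not at 25 °C. At 25 °C *fbxa-135* was called lower in mutants with all 15 libraries in 1 fit (log2 fold change -2.90, edgeR FDR = 0.025). It was also called there without a filter (edgeR FDR = 0.0041), and in neither setting at 20 °C.

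Growth at 25 °C was accompanied by more changes among the *fbxa-* genes than loss of *fbxa-215*. In N2, 21 of the 97 that entered the fit over all 15 libraries were called, 19 higher and 2 lower at 25 °C, by the same test and thresholds. Of all 14000 genes 6.59% were called, 5.49% higher and 1.09% lower. The median log2 fold change of 25 over 20 °C was 0.303 among the members and 0.0673 among all genes, and 74 of the 97 were above 0. Libraries at 25 °C were all above those at 20 °C in 20 of the 97 (20.3% of all genes) and all below them in 7 (20.2%). With the FDR alone the order was the other way round, with 35 of 97 passing against 45.1% of all genes. Some of the 97 passed the filter through the group in which they were high: among the 80 that passed at each temperature alone, 9 were called higher, against 4.05% of the 12972 such genes, and 2 lower, against 0.871%. Among the rises named below, *fbxa-5*, *fbxa-66*, *fbxa-85*, *fbxa-135*, *fbxa-138*, *fbxa-163*, *fbxa-166* and *fbxa-199* did not pass at 20 °C alone. They entered the fit through libraries at 25 °C, so their calls are not read as results about the members.

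Rises were more frequent among genes of low level in general, so the members were set beside genes of like mean CPM over the 15 libraries. In N2, below 1 CPM, 8 of 16 members rose, against 16.9% of 1151 genes, and from 1 to 5 CPM 9 of 59 rose (15.3%), against 11.5% of 3207 genes. Above 5 CPM 2 of 22 rose, *fbxa-182* and *fbxa-189*, against 2.12% of 9642 genes. In mutants the shares were 2 of 16 (12.5%) against 8.34% of genes below 1 CPM, 6 of 59 (10.2%) against 5.33% from 1 to 5 CPM, and 2 of 22 against 1.01% above 5 CPM. Below 1 CPM the share of rises was thus 8 of 16 in N2 and 2 of 16 in mutants, and the difference between the strains was not tested. Genes of this level can enter the fit through the group in which they are high, and binning by mean CPM does not remove this. How many entered that way in each bin was not counted, so neither these shares nor their difference is read as a result about the members.

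The strongest rise among well-counted members was that of *fbxa-182* (chromosome II, 2409633 to 2412749, minus strand, 6 exons). In N2 it had 3.18, 4.86, 3.70 and 3.13 CPM at 20 °C and 12.3, 12.3, 11.7 and 12.04 CPM at 25 °C. In mutants it had 2.39, 3.25, 2.54 and 3.29 CPM at 20 °C and 10.7, 14.7 and 12.7 CPM at 25 °C. The 2 temperatures were far apart in both strains, with no library between 4.86 and 10.7 CPM. The log2 fold change was 1.70 ± 0.16 in N2 (FDR = 3.1e-07 by edgeR) and 2.13 ± 0.17 in mutants (FDR = 1.7e-07), while mutants did not differ detectably from N2 at either temperature (log2 fold change -0.34 ± 0.20 at 20 °C and 0.07 ± 0.14 at 25 °C).

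*fbxa-189* (chromosome V, 17345214 to 17347781, plus strand, 10 exons) also rose in both strains. It had 5.05, 8.15, 7.77 and 6.51 CPM in N2 at 20 °C and 15.2, 14.1, 15.7 and 17.2 CPM at 25 °C. Mutants had 3.91, 3.48, 6.30 and 3.90 CPM at 20 °C and 10.7, 13.7 and 10.1 CPM at 25 °C. Neither strain overlapped between temperatures, and the log2 fold change was 1.19 ± 0.18 in N2 (FDR = 4.2e-05 by edgeR) and 1.40 ± 0.19 in mutants (FDR = 5.1e-05). Its neighbour *fbxa-188* (17342791 to 17344926, minus strand) had 3.03, 3.21, 4.62 and 2.01 CPM in N2 at 20 °C and 3.95, 1.45, 3.48 and 3.88 CPM at 25 °C, values that overlap, with a log2 fold change of 0.01 ± 0.33. In mutants *fbxa-188* had 1.91, 0.832, 2.77 and 1.54 CPM at 20 °C and 2.71, 4.55 and 3.77 CPM at 25 °C, and its log2 fold change of 1.08 ± 0.36 was called (FDR = 0.037 by edgeR) but lost when any of 7 libraries was left out.

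On chromosome II, *fbxa-163* and *fbxa-166* lie in a group of 5 members from 1609252 to 1624672, and both rose with temperature in both strains. In N2 *fbxa-163* went from 1, 1, 0 and 0 counts at 20 °C to 10, 2, 8 and 6 counts at 25 °C, a ratio of 12.4 over the summed counts (95% counting interval 3.09 to 107). In mutants it went from 5, 2, 5 and 29 counts to 22, 21 and 11 counts, with a log2 fold change of 1.43 ± 0.48 (edgeR FDR = 0.035). Replicate 4 at 20 °C (0.993 CPM) overlapped replicate 3 at 25 °C (0.922 CPM). That call was lost in DESeq2, with the mutant libraries fitted alone, and without mutant replicate 1, 2 or 3 at 20 °C or 1 or 2 at 25 °C. *fbxa-166* (1616829 to 1619048, minus strand) had 0.289, 0.0823, 0.0925 and 0.241 CPM in N2 at 20 °C and 0.973, 0.636, 0.696 and 0.233 CPM at 25 °C, so that replicate 4 at 25 °C was not above the 20 °C values. In mutants *fbxa-166* had 0.160, 0.151, 0.307 and 0.342 CPM at 20 °C and 0.961, 1.16 and 0.335 CPM at 25 °C, where replicate 3 overlaps them. Its log2 fold change was 1.78 ± 0.59 in N2 (FDR = 0.020 by edgeR) and 1.64 ± 0.54 in mutants (FDR = 0.032). The call of *fbxa-166* in N2 was lost without replicate 2 or 3 at 20 °C. That in mutants was lost in DESeq2, with the replicate block, and without replicate 1 or 2 at either temperature. The other 3 members of the group, *fbxa-160*, *fbxa-164* and *fbxa-165*, had at most 4 counts in a library and were not tested.

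On chromosome III, 3 of the 18 tested members of the largest group rose in N2 (5.49% of all genes tested) and 3 in mutants (2.6%). *fbxa-138* and *fbxa-26* were called in both. *fbxa-138* (1382185 to 1384252, minus strand, 4 exons) had 0.289, 0.741, 0.647 and 0.482 CPM in N2 at 20 °C and 1.95, 1.54, 2.44 and 1.55 CPM at 25 °C. In mutants it had 0.558, 0.227, 1.15 and 0.342 CPM at 20 °C and 2.27, 2.55 and 1.34 CPM at 25 °C. All libraries at 25 °C were above all libraries at 20 °C. The log2 fold change was 1.80 ± 0.41 in N2 (FDR = 0.0019 by edgeR) and 1.91 ± 0.42 in mutants (FDR = 0.0028). Neither call was lost when any 1 library was left out, but the gene entered the fit through the libraries at 25 °C, in which it was high.

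Elsewhere in the same group, *fbxa-5* (1336695 to 1340340, minus strand, 4 exons) rose in N2 from 0.289, 0.576, 0.277 and 0.161 CPM to 1.28, 0.817, 0.696 and 1.01 CPM, without overlap (log2 fold change 1.55 ± 0.49, FDR = 0.016 by edgeR). Without N2 replicate 1 at 25 °C its FDR was 0.055. The pseudogene *fbxa-21* (1236015 to 1237048) rose in mutants, from 1.36, 0.454, 1.54 and 1.23 CPM to 2.79, 4.09 and 2.348 CPM (log2 fold change 1.42 ± 0.36, FDR = 0.0075 by edgeR), and fell short of the call without mutant replicate 2 at 25 °C (FDR = 0.068). In N2 its values overlapped, with 0.563 to 1.57 CPM at 20 °C and 1.17 to 2.52 CPM at 25 °C. *fbxa-66*, in another group of 15 members from 2219708 to 2314035 on the same chromosome, rose in N2 from 0.144, 0.247, 0.370 and 0.321 CPM to 1.58, 0.817, 1.13 and 0.777 CPM (log2 fold change 2.01 ± 0.41, FDR = 7.8e-04 by edgeR).

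On chromosome V, *fbxa-199* and *fbxa-135* are neighbours (15397385 to 15398828 and 15402264 to 15404409). *fbxa-199* had 0, 0, 1 and 1 counts in N2 at 20 °C and 12, 2, 10 and 14 counts at 25 °C, a ratio of 18.1 over summed counts (95% counting interval 4.67 to 154). Its libraries did not overlap in N2, but replicate 2 at 25 °C was within 1 count of the 20 °C libraries. In mutants it had 4, 6, 1 and 4 counts at 20 °C and 5, 8 and 10 counts at 25 °C, and was not called (FDR = 0.096 by edgeR). *fbxa-135* was called in N2 (log2 fold change 1.55 ± 0.57, FDR = 0.034) with overlapping groups: at 20 °C it had 0.0722, 0.247, 1.02 and 0.482 CPM and at 25 °C 1.28, 0.454, 0.783 and 2.56 CPM. That call was lost without replicate 4 at 25 °C, the highest library (log2 fold change 0.99, FDR = 0.18), without replicate 1 at 25 °C and without replicate 1, 2 or 4 at 20 °C, as well as in DESeq2 (FDR = 0.069) and with the N2 libraries fitted alone (0.068). On the same chromosome *fbxa-157* rose in mutants from 1.60, 2.12, 1.69 and 2.12 CPM to 5.85, 3.24 and 3.52 CPM (log2 fold change 1.13 ± 0.24, FDR = 0.0020 by edgeR). Without mutant replicate 1 at 25 °C the log2 fold change of *fbxa-157* was 0.80, below the threshold. The 11 rises in N2 outside the 8 largest, *fbxa-189* among them, had log2 fold changes between 1.06 and 1.47, and the remaining 2 in mutants, *fbxa-26* and *fbxa-85*, which are named here after their values were seen, 1.02 and 1.04.

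**Figure D3:**
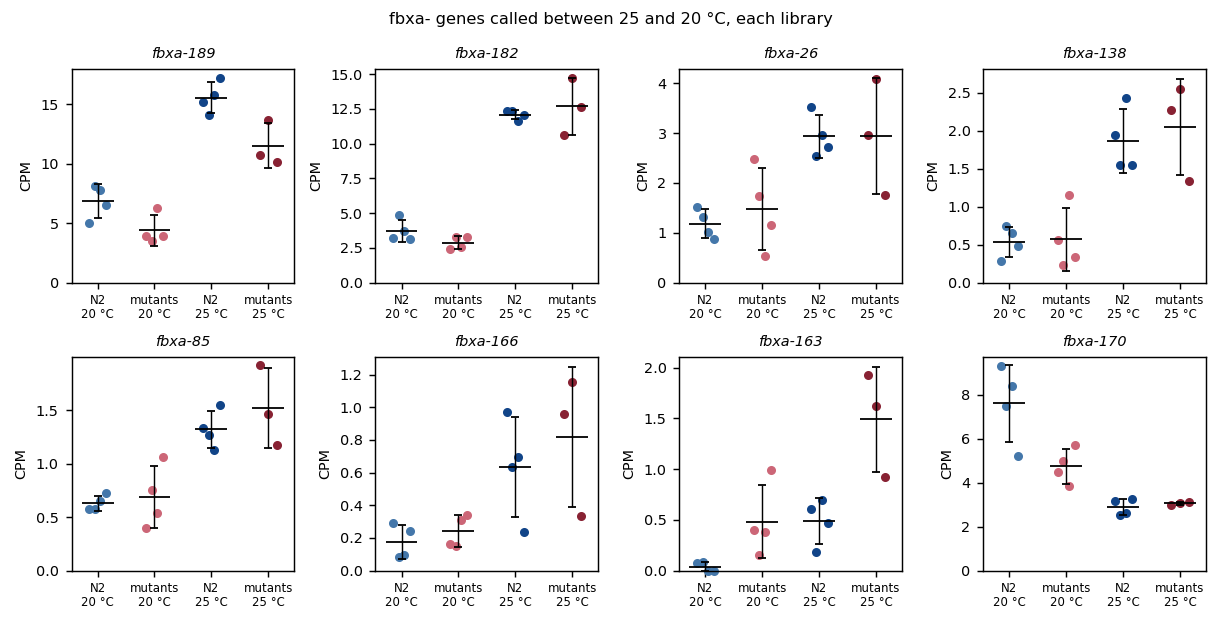
CPM of the 7 *fbxa-* genes called between temperatures in both strains, in order of their mean in N2 at 25 °C, and of *fbxa-170*, which fell in N2; 1 point per library, with the mean (line) and SD (error bar) of each group. *fbxa-182* lies between 2.39 and 4.86 CPM at 20 °C and between 10.7 and 14.7 CPM at 25 °C.

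Falls were fewer. *fbxa-170* (chromosome X, 1676205 to 1678121, minus strand, 4 exons) had 9.31, 7.49, 8.42 and 5.22 CPM in N2 at 20 °C and 3.16, 2.54, 2.61 and 3.26 CPM at 25 °C. In mutants it had 4.47, 4.99, 3.84 and 5.72 CPM at 20 °C and 2.97, 3.09 and 3.10 CPM at 25 °C. The temperatures did not overlap in either strain, and at 20 °C the mutants were below 3 of the 4 N2 libraries. The fall of 25 against 20 °C was called in N2, where the log2 fold change was -1.38 ± 0.19 (FDR = 1.6e-05 by edgeR). In mutants it was -0.65 ± 0.21 (FDR = 0.026), short of the fold change threshold. At 20 °C the log2 fold change of mutants over N2 was -0.65 ± 0.19 (FDR = 0.046).

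The second fall in N2 was that of *fbxa-143* (chromosome V, 16125794 to 16127501), from 1.23, 1.40, 1.76 and 1.61 CPM to 0.851, 0.272, 0.783 and 0.544 CPM, without overlap (log2 fold change -1.24 ± 0.34, FDR = 0.0071 by edgeR). In mutants it had 1.28, 1.13, 0.615 and 1.34 CPM at 20 °C and 0.699, 1.16 and 0.922 CPM at 25 °C, which overlap, with a log2 fold change of -0.25 ± 0.36. The 1 fall called in mutants was *fbxa-184* (chromosome II, 1710259 to 1711417), from 0.877, 0.605, 0.922 and 0.993 CPM to 0.175, 0.309 and 0.503 CPM (log2 fold change -1.36 ± 0.47, FDR = 0.039 by edgeR). It rested on 2 to 6 counts in each library at 25 °C and was lost without mutant replicate 1, 3 or 4 at 20 °C or replicate 1 or 2 at 25 °C, and also in DESeq2 and with the replicate block (FDR = 0.057 and 0.052).

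In mutants, 11 of the 97 were called between temperatures, 10 higher and 1 lower, against 3.17% of all 14000 genes, 2.6% higher and 0.571% lower. Among the 80 that passed the filter at each temperature alone, 6 were called higher, against 1.76% of such genes, and 0 lower by edgeR, against 0.416%. The median log2 fold change was 0.164 among the members and 0.0433 among all genes. The temperatures did not overlap in 21 that were higher at 25 °C (17.8% of all genes) and in 6 that were lower (13.8%). The calls were 7 in DESeq2, and leaving out mutant replicate 1 or 2 at 20 °C or at 25 °C gave 6 or 7. Of the 11, 7 were also called in N2 (63.6% of the calls in mutants and 33.3% of the 21 in N2, where the 249 genes called in both strains make up 56.1% and 27.01% of all calls), namely *fbxa-26*, *fbxa-85*, *fbxa-138*, *fbxa-163*, *fbxa-166*, *fbxa-182* and *fbxa-189*. The strains do not share libraries in these comparisons, and over the 97 genes 73 had the same sign in both (75.3%), close to the 70.8% of all genes.

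**Figure D4:**
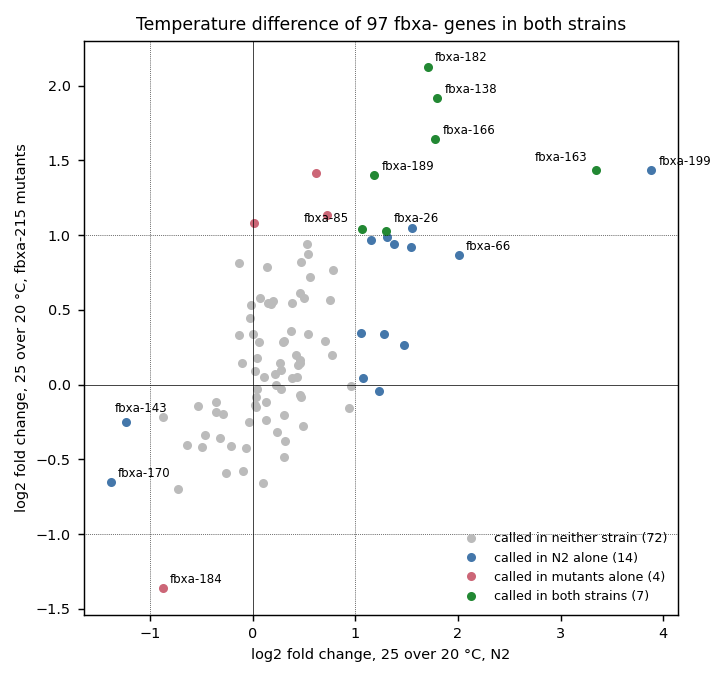
Log2 fold change of 25 over 20 °C in N2 (horizontal) and in *fbxa-215* mutants (vertical) for the 97 *fbxa-* genes in the fit over all libraries, coloured by where the gene was called; dotted lines mark the fold change threshold. The 7 genes called in both strains all rose, and the fitted values of *fbxa-163* and *fbxa-199* rest on 2 counts in N2 at 20 °C.

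Summed over the 172 genes, the level was 387 ± 4.49 CPM in N2 at 20 °C and 460 ± 29.9 CPM at 25 °C (SD, n = 4 each), with no overlap (383 to 392 against 432 to 496 CPM). In mutants it was 384 ± 7.58 CPM at 20 °C (n = 4) and 425 ± 24.9 CPM at 25 °C (n = 3). One library of 1 gene added to the sum: *fbxa-74* had 23.8, 30.4, 30.4 and 63.7 CPM in N2 replicates 1 to 4 at 25 °C, against 20.8, 18.4, 26.1 and 25.6 CPM at 20 °C. Without *fbxa-74* the sums in N2 were 364 ± 2.44 and 423 ± 16.7 CPM, and they still did not overlap. For *fbxa-74* itself the log2 fold change was 0.71 ± 0.25 (edgeR FDR = 0.035) and 0.32 without replicate 4 (FDR = 0.076). In mutants it had 18.5, 15.4, 18.4 and 15.6 CPM at 20 °C and 21.7, 22.8 and 17.5 CPM at 25 °C.

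Among the other highest members the differences were small. *fbxa-101* had 37.2, 35.2, 35.3 and 35.0 CPM in N2 and 32.3, 35.1, 37.2 and 33.8 CPM in mutants at 20 °C, which overlap, and 28.9, 32.1, 26.3 and 31.9 CPM in N2 and 25.9, 24.8 and 18.03 CPM in mutants at 25 °C. It was thus lower at 25 °C in both strains, by a log2 fold change of -0.26 ± 0.10 in N2 (FDR = 0.039 by edgeR) and -0.59 ± 0.11 in mutants (FDR = 7.2e-04), below the fold change threshold. *fbxa-197* had 10.8 to 11.9 CPM in the 8 libraries at 20 °C, 9.18, 12.3, 10.5 and 10.9 CPM in N2 at 25 °C and 7.34, 8.02 and 6.87 CPM in mutants at 25 °C. Only the mutants at 25 °C stood apart, and their log2 fold change over N2 was -0.53 ± 0.15 (FDR = 0.033). *fbxa-60* went the other way, with 17.3, 15.1, 18.4 and 16.6 CPM in N2 and 22.2, 24.2 and 24.2 CPM in mutants at 25 °C (log2 fold change 0.48 ± 0.11, FDR = 0.015). In mutants it was also higher at 25 than at 20 °C (log2 fold change 0.54, FDR = 0.0041 by edgeR). *fbxa-72* was lower at 25 than at 20 °C in N2 (5.65, 10.7, 7.57 and 5.82 against 11.6, 11.9, 10.9 and 11.6 CPM, log2 fold change -0.64 ± 0.19, FDR = 0.0098). For *fbxa-114*, *fbxa-69* and *fbxa-211* no comparison passed the FDR, and for *fbxa-206* and *fbxa-156* only N2 at 25 against 20 °C did (log2 fold change -0.31 ± 0.12 and 0.42 ± 0.16).

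Whether the effect of the mutation differed between temperatures was tested directly as an interaction, and no *fbxa-* gene was called. The count was 0 of 97 by edgeR's quasi-likelihood test, with 0 also by DESeq2, against 0.307% of all 14000 genes, and 0 with the FDR alone, against 1.46%. Of the 97, 9 had an unadjusted p under 0.05, compared with 24.6% of all genes. The smallest FDR was that of *fbxa-155*, 0.076, with a log2 difference of 0.94 ± 0.29 between the effects at 25 and 20 °C. Then came *fbxa-197* (-0.48 ± 0.16, FDR = 0.094), *fbxa-196* (-0.76 ± 0.28, FDR = 0.11), *fbxa-106* (-0.69 ± 0.26, FDR = 0.12) and *fbxa-170* (0.73 ± 0.28, FDR = 0.13). *fbxa-196* had 4.19, 2.88, 3.33 and 5.06 CPM in N2 and 6.22, 6.35, 5.22 and 5.27 CPM in mutants at 20 °C, without overlap, and 6.08, 5.36, 6.44 and 3.88 CPM against 4.45, 5.32 and 4.44 CPM at 25 °C, with overlap. *fbxa-106* had 7.08 to 9.74 CPM in the 8 libraries at 20 °C, 8.75 to 10.7 CPM in N2 at 25 °C and 9.34, 4.71 and 6.12 CPM in mutants at 25 °C. The interaction of *fbxa-155* passed without mutant replicate 4 at 20 °C (1.07, FDR = 0.033), and that of *fbxa-106* without mutant replicate 1 at 25 °C, its highest library there (-1.04, FDR = 0.020).

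**Figure D5:**
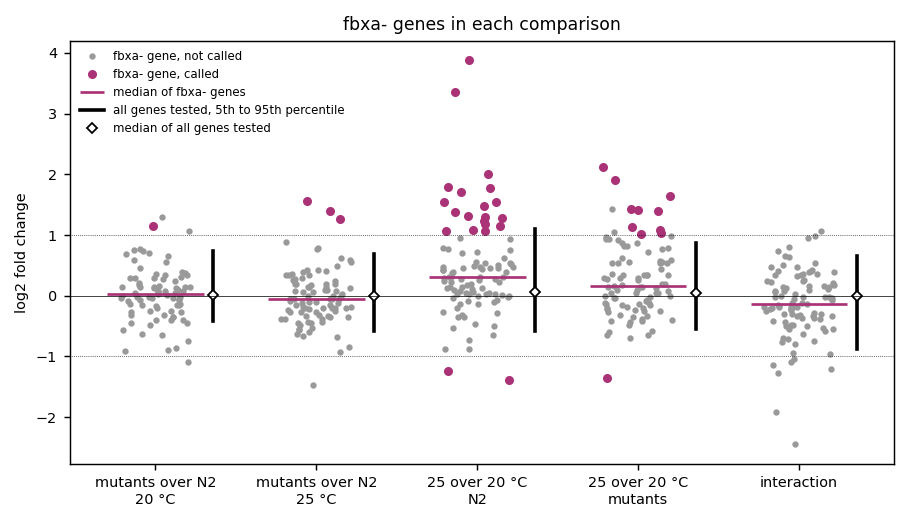
Log2 fold changes of the *fbxa-* genes tested in each comparison (points, called ones in colour, with their median as a line) beside the median and the 5th to 95th percentile of all genes tested (diamond and bar). Members are called mainly at 25 over 20 °C, 21 of 97 in N2 (6.59% of all genes) and 11 of 97 in mutants (3.17%). All genes are also called more often there than between genotypes (1.49% and 1.92%). With the FDR alone, 36.1% and 23.7% of members pass, against 45.1% and 25.5% of all genes. The medians of the members there (0.303 and 0.164) lie above those of all genes (0.0673 and 0.0433).

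The partners of F-box proteins were read beside them from a list of the SCF core. Of its 24 tested genes, none was called between mutants and N2 at 20 °C and none of 21 at 25 °C (0 genes by edgeR, against 1.49% and 1.92% of all genes). With the FDR alone 1 passed at each temperature, against 13.5% and 12.1% of all genes. Between temperatures, 5.49% of all genes rose and 1.09% fell in N2, and 2.6% rose and 0.571% fell in mutants. Of the list, *skr-5* rose and *skr-7*, *skr-10*, *skr-12* and *skr-14* fell in N2, and in mutants *skr-5* rose and *skr-7* and *skr-12* fell. These encode Skp1-related proteins. *skr-5*, with *skr-3*, *skr-4* and *cul-6* part of the intracellular pathogen response, had 1.01 to 2.47 CPM in N2 at 20 °C and 4.81 to 7.54 CPM at 25 °C (log2 fold change 1.81), and 1.12 to 2.397 against 3.84 to 7.71 CPM in mutants (1.80). Of 15 genes of cullin neddylation and the COP9 signalosome and 9 conserved F-box genes such as *lin-23* and *sel-10*, none was called in any of the 4 comparisons. In N2 between temperatures 12 and 5 of them passed the FDR alone, which 45.1% of all genes did. Of the 106 *fbxb-* genes, another F-box family, 5 were tested between temperatures and 3 rose and 1 fell in N2. Of the 45 *fbxc-* genes 17 were tested and 3 rose and 3 fell, beside the 5.49% and 1.09% of all genes. Whether these shares differ was not tested.

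Markers of tissues moved between the same groups of libraries. In N2 the summed CPM of 5 oocyte markers was 2953 to 3751 at 20 °C and 1877 to 2361 at 25 °C, that of 5 germline markers 2281 to 2571 and 1930 to 2075, and that of 5 sperm markers 314 to 370 and 377 to 462. In mutants the oocyte markers had 2186 to 2350 CPM at 20 °C and 1811 to 1888 CPM at 25 °C. No marker of these 3 lists was called (0 of 15 genes by edgeR in N2 between temperatures, against 6.59% of all genes). With the FDR alone 5, 3 and 5 of the 5 in each list passed, where 45.1% of all genes did. Their median log2 fold changes in N2 were -0.58, -0.38 and 0.47. Of 7 intestine markers 5 passed the FDR alone in N2 between temperatures (median log2 fold change 0.41), and of 4 hypodermis markers 1 did (0.52), with none called. The share of all genes was again 45.1%. Between mutants and N2 at 25 °C, 4 of the 7 intestine markers passed the FDR alone (12.1% of all genes), with a median log2 fold change of -0.011. Between mutants and N2 the 3 pharynx markers had 420 to 524 against 316 to 404 CPM at 20 °C and 710 to 749 against 299 to 463 CPM at 25 °C. Of these, *tnt-4*, a troponin T of the pharynx, was called higher in mutants at both temperatures, as were 1.23% and 1.31% of all genes at 20 and 25 °C. At 25 °C the 4 body muscle markers had 6084 to 6672 CPM in mutants against 4061 to 5371 CPM in N2, and the 4 neuron markers 197.5 to 250.4 against 181 to 187 CPM. In each of these 2 lists 3 of 4 passed the FDR alone, against 12.1% of all genes. At 20 °C all 5 oocyte markers were lower in mutants by the FDR alone, which 13.5% of all genes passed in either direction, with a median log2 fold change of -0.42. The part of these marker differences in the changes of the *fbxa-* genes was not tested.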

How the data were processed

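Poly-A enriched, non-directional paired-end libraries of whole young adults were analysed (15 libraries in 4 groups, read from the labels). The authors trimmed reads with Trimmomatic 0.39 and quantified transcripts with salmon 1.5.1, and deposited estimated counts per gene, which were rounded to whole numbers here. The genome build is WBcel235, and the transcriptome release is not given in the sources used here. From the authors' DESeq2 tables, which hold log2 expression, fold changes and adjusted p-values, only gene names were used. Salmon divides reads between similar transcripts, so counts of near-identical members can be exchanged between them.

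Counts were normalized by TMM and tested with edgeR 4.0.16 (quasi-likelihood F-test, robust, in R 4.3.3) after filterByExpr (count threshold 10, summed threshold 15). Genotypes were compared within each temperature, and temperatures and the interaction in 1 fit over all 15 libraries. p-values were adjusted by Benjamini-Hochberg over all genes tested, and SEs were derived from the F statistic. Exon lengths came from Ensembl release 115. Ratios over 3 or fewer counts have exact 95% intervals that cover counting error only. Alternatives were DESeq2 1.42.0, RLE normalization, other filters, other fits, a replicate block and leaving out each library. The fits were tested on simulated data, with changes placed in well-counted genes only, so calls that rest on few counts were not covered.

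The genes named are those called, up to the 8 largest rises and 8 largest falls in a comparison, the 10 highest in N2 at 20 °C, the 5 smallest interaction p-values, and *fbxa-75*, *fbxa-114*, *fbxa-182* and *fbxa-197* by name. Others are said to have been picked after their values were seen. The members and lists were chosen with earlier results of these data known. Sequences, motifs and protein identities were not analysed here, and embryo samples were not analysed here.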

Additional observations from a re-analysis of the deposited data

Results flagged for a closer look

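In 7 of 90 groups of 4 libraries, over 31 named *fbxa-* genes, 1 library lay far from the other 3 by Dixon's criterion, which chance alone meets in about 1 in 20 groups. *fbxa-74* had 63.7 CPM in N2 replicate 4 at 25 °C, against 23.8 to 30.4 CPM in the other replicates. *fbxa-155* had 1.32 CPM in N2 replicate 4 at 25 °C, against 1.998 to 2.09 CPM, and 3.01 CPM in mutant replicate 4 at 20 °C, against 2.305 to 2.42 CPM. *fbxa-189* had 6.30 CPM in mutant replicate 3 at 20 °C, against 3.48 to 3.91 CPM. *fbxa-5* had 0.925 CPM in mutant replicate 4 at 20 °C, against 0.227 to 0.319 CPM. *fbxa-60* had 18.1 CPM in N2 replicate 3 at 20 °C, against 13.7 to 13.9 CPM, and *fbxa-101* had 37.2 CPM in N2 replicate 1 at 20 °C, against 35.0 to 35.3 CPM.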

How the results depend on the processing

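Between mutants and N2 at 20 °C, 1 member was called, and 6 were with all 15 libraries in 1 fit, 3 in DESeq2, 3 with the FDR alone, 2 without a filter, 2 with RLE normalization and 0 to 1 when single libraries were left out. At 25 °C, 3 were called, and 1 with at least 10 counts in every library, 5 with the FDR alone, 5 without a filter and 1 to 5 when single libraries were left out. Between temperatures in N2, 21 were called, and 5 with at least 10 counts in every library, which leaves fewer genes to test, 35 with the FDR alone and 15 to 22 when single libraries were left out. In mutants, 11 were called, and 4 with at least 10 counts in every library, 7 in DESeq2, 7 with the mutants fitted alone, 23 with the FDR alone and 6 to 12 when single libraries were left out. For the interaction, 0 were called, and 0 to 1 when single libraries were left out. Of 23 calls of named members, 11 held under every alternative that gave a value. No called value changed sign, and 1235 of 1243 single-member values kept their sign. In the same order, 1.49%, 1.92%, 6.59%, 3.17% and 0.307% of all genes tested were called. With the FDR alone the shares were 13.5%, 12.1%, 45.1%, 25.5% and 1.46%. Shares of all genes under the other settings are not given here, so those counts are not read as results about the members. Where not stated, the cause of a change was not tested.

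The groups share replicate numbers, but deviations of same-numbered libraries had correlations between -0.388 and 0.147, so the numbers were not taken to pair the libraries. With the replicate block 0 members were called at 20 °C, 1 at 25 °C, 20 between temperatures in N2 and 8 in mutants.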
